A study of Homo sapiens with 24 samples.

Results

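Of the 189403 peaks of open chromatin measured in T47D cells, 1769 (0.934%) opened when the cells were starved of hormone and kept that accessibility through 1 h of estradiol. They were chosen from the measured values in 3 groups of 4 libraries. Counts were divided by the total of their library to give CPM, the counts in a site per 1000000 counts in all peaks of that library, averaged over the group, and compared on a log2 scale after adding 0.5 CPM. A peak was kept where the starved vehicle mean was at least 4 CPM, the starved over complete vehicle ratio was at least 2-fold, all 4 starved vehicle libraries lay above all 4 complete vehicle libraries, and the estradiol over starved vehicle log2 ratio lay within 0.25 of 0. Of 2611 peaks that met the first 3 conditions, these 1769 made up 67.75%, while 795 were lower and 47 higher with estradiol by more than the window. Everything below on starved against complete vehicle, or on estradiol against starved vehicle, in all 4 replicates therefore describes the choice and tests nothing.

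Open chromatin sites are the promoters, enhancers and insulators where transcription factors can reach the DNA. ATAC-seq detects them through a transposase that cuts preferentially where nucleosomes are absent. In breast cells of luminal type, estradiol binds the estrogen receptor, which then occupies enhancers that pioneer factors such as FOXA1 and GATA3 keep accessible. Charcoal stripping removes steroids and other small lipophilic molecules from serum, and phenol red is itself weakly estrogenic, so starved medium withdraws more than estradiol alone.

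T47D is an established human breast carcinoma line that carries the estrogen receptor, so all groups share 1 genetic background, and every group had 4 libraries. The starved groups spent 3 days without phenol red and with charcoal-stripped serum, followed by 1 h with 1 nM estradiol (Starved_Estrogen) or with the 0.1% DMSO vehicle (Starved_DMSO). The complete-medium groups spent 1 day in full medium, followed by 1 h with fulvestrant, raloxifene or tamoxifen at 100 nM, or with vehicle (Complete_DMSO). Fulvestrant is a steroidal antagonist that triggers receptor degradation, whereas raloxifene and tamoxifen are non-steroidal selective receptor modulators. Days in medium and seeding density differed together with hormone content, so their parts in any difference between the media cannot be told apart. Replicates 3 and 4 of Complete_DMSO have a treatment label that names fulvestrant, although title and description name DMSO, and they were used as vehicle.

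Most of these sites lie away from gene starts, and the sequence tables used here cover the promoters of genes, so the letters can be read where a site falls on a promoter. The stretches shown are the bases before the annotated start that lie inside the peak, for 6 of the 21 sites over a promoter window. They were chosen to include 5 protein-coding genes and the promoter with the largest medium ratio. They are RefSeq sequences on GRCh38.p14, written 5′ to 3′ on the strand of the gene. Capitals mark the letters of a searched motif (TEAD, RUNX, GATA or SP and KLF), and a stretch without capitals holds none of the 13 motifs searched.
LOC105376242, chr9:117466173-117466418, minus strand: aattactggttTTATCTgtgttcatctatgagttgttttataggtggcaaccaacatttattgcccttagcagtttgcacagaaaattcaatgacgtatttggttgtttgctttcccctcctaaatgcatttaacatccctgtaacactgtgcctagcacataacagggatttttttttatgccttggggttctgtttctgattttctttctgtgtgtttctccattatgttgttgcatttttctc
KAZN, chr1:14945574-14945780, plus strand: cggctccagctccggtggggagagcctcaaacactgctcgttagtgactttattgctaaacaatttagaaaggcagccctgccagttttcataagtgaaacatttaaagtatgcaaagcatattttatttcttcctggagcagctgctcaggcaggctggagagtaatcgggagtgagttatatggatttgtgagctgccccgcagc
KCNJ13, chr2:232776566-232776691, minus strand: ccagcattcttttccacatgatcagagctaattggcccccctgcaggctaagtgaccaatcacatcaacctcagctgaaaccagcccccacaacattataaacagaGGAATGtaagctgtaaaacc
PNPLA2, chr11:818811-818913, plus strand: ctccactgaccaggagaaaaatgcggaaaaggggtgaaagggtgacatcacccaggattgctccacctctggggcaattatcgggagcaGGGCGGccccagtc
PLAC1, chrX:134658472-134658579, minus strand: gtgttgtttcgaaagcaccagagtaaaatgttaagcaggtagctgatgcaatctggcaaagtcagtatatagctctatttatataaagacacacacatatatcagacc
PAMR1, chr11:35530301-35530495, minus strand: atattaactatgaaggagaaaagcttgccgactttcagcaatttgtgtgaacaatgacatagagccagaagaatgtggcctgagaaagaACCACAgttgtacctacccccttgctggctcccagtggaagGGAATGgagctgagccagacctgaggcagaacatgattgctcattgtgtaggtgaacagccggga
The PNPLA2 stretch carries a GC box (GGGCGG), the element that SP and KLF factors bind. The KCNJ13 and PAMR1 stretches carry the TEAD letters GGAATG, PAMR1 also the RUNX letters ACCACA, and LOC105376242 the GATA letters TTATCT. In base composition the promoter of LOC105376242 has 38% G and C over its 300 bases and that of PLAC1 39%, against 59.3% for PNPLA2.

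Library totals ran from 434598 to 12140005 counts. The low end is fulvestrant replicate 4, in which 1 count is worth 2.301 CPM and 611 of the 1769 sites had no count, and the next lowest is starved vehicle replicate 3 with 2422981. In the remaining libraries, the median count per site ran from 16 to 83. The luminal identity of the cells is visible at gene starts, where peaks within 1 kb of 7 of 9 luminal marker genes summed to between 296.1 and 333.5 CPM in the 8 starved libraries and to between 292.2 and 391.8 CPM in the 16 complete-medium ones. The same sums for 5 basal or mesenchymal genes, 2 of which had such a peak, were 8.55 to 14.86 CPM in starved and 8.524 to 20.71 CPM in complete-medium libraries, and 4 blood genes had no such peak in any library. None of these marker peaks is among the 1769 sites. A site that is open in more cells and a site that is more open in each cell cannot be told apart in bulk libraries. Whether replicates came from separate cultures is not stated in the labels, so tests rest on the spread among these libraries, which may be technical.

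In the groups that chose them, the sites stood at a median of 7.388 CPM with estradiol, 7.637 CPM in starved vehicle and 2.719 CPM in complete vehicle. The median starved over complete vehicle log2 ratio was 1.26, or 2.393-fold, with quartiles of 1.115 and 1.493 and a largest value of 2.97. Most were moderate openings, since 1447 sites lay between 2-fold and 3-fold, 247 between 3-fold and 4-fold, and 75 (4.24%) at 4-fold or more. Few were close to 0 in complete medium, where 54 sites averaged under 1 CPM and 69 averaged at least 10 CPM. At the upper end, 155 sites reached 20 CPM in starved vehicle, while 931 stayed under 8 CPM.

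The borders of the choice cut through a continuum. A peak on chromosome 4 (chr4:164240027-164240268) entered with 4.007 CPM in starved vehicle, and a peak on chromosome 5 (chr5:29017571-29017808) stayed out with 3.999 CPM. Peaks on chromosome 1 (chr1:60727562-60727833) and chromosome 20 (chr20:49937413-49937613) had starved over complete vehicle log2 ratios of 1.0001 and 0.9997. At the estradiol border, a peak on chromosome 1 (chr1:156577527-156577808) entered with a log2 ratio of -0.2499, and one on chromosome 5 (chr5:90191410-90191657) stayed out at -0.2502. Counting peaks that failed a single condition, 3993 missed only the 2-fold ratio, 1415 only the minimum level, 842 only the estradiol window and 193 only the separation of libraries.

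The sites were high in every starved library and low in every complete-medium library. Averaged over the 1769 sites, the level was 10.34, 10.86, 8.855 and 8.531 CPM in estradiol replicates 1 to 4, against 10.71, 11.24, 8.67 and 9.485 CPM in starved vehicle replicates 1 to 4. It was 4.222, 4.359, 3.742 and 4.16 CPM with fulvestrant, 4.142, 4.206, 3.496 and 3.384 CPM with raloxifene, 3.934, 4.146, 3.534 and 3.404 CPM with tamoxifen, and 3.827, 4.014, 3.533 and 3.494 CPM in complete vehicle. The 8 starved libraries overlapped each other across the 2 treatments, and the lowest of them, at 8.531 CPM, was above the highest complete-medium library, at 4.359 CPM. Replicates 1 and 2 lay above replicates 3 and 4 in all 6 groups. The labels name no batch, and each group has 2 libraries on either side. The opened sites that were lower with estradiol averaged 5.833 ± 0.5232 CPM with estradiol, 7.74 ± 0.5567 CPM in starved vehicle and 2.779 ± 0.1286 CPM in complete vehicle (SD, n = 4 each). The mirror choice took peaks with a complete vehicle mean of at least 4 CPM that were at least 2-fold higher in complete than in starved vehicle. It also required all 4 complete vehicle libraries above all 4 starved vehicle libraries and an estradiol ratio inside the same window. This gave 627 peaks. That was fewer than the 1769 that opened and stayed inside the window. As a share of all counts, the sites took up 1.51% to 1.99% of each starved library and 0.599% to 0.771% of each complete-medium library.

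**Figure D1:**
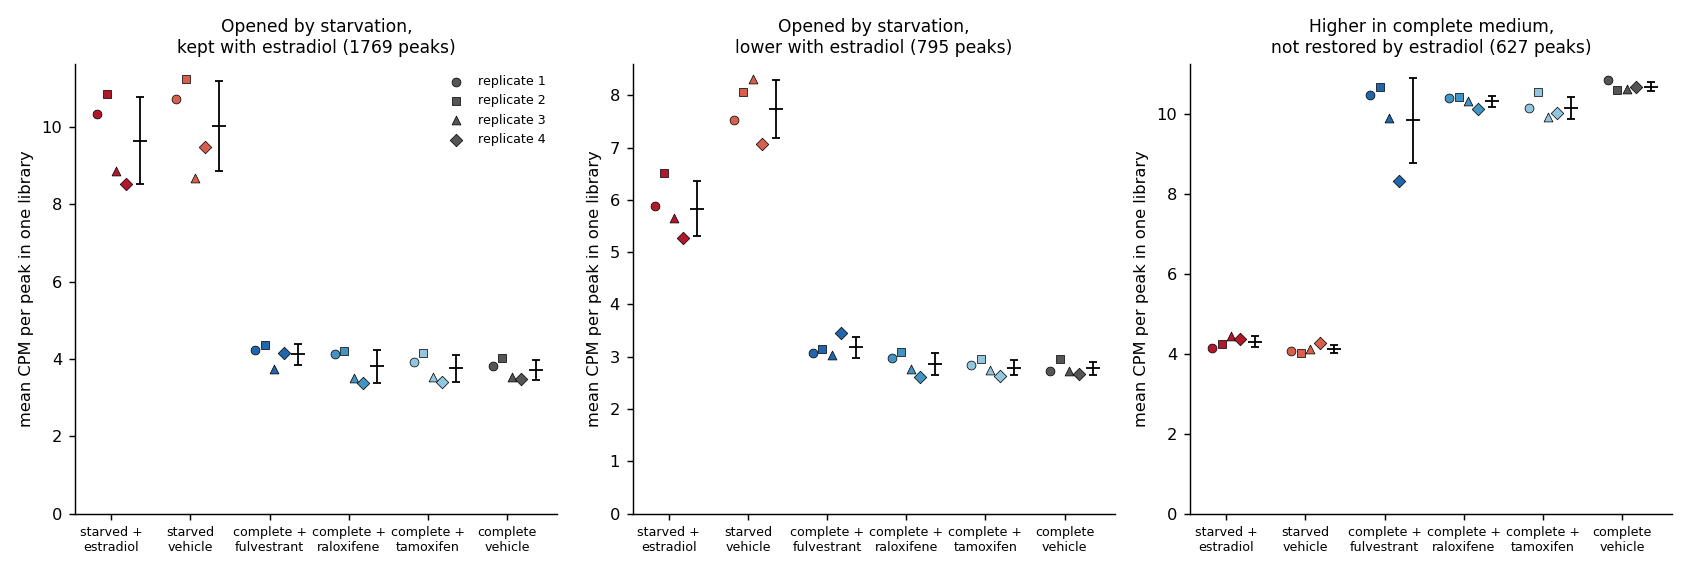
Mean CPM per peak in each library, for the 1769 sites kept with estradiol, the 795 opened sites that were lower with estradiol and the 627 sites of complete medium that estradiol did not restore. Points are libraries, with the mean and SD of 4 beside them. In the left panel the estradiol libraries (8.531 to 10.86 CPM) share the range of the starved vehicle libraries, and all 16 complete-medium libraries lie at or under 4.359 CPM.

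With estradiol the sites kept their level, by the terms on which they were chosen. The group mean over the sites was 9.646 ± 1.129 CPM with estradiol and 10.03 ± 1.165 CPM in starved vehicle (SD, n = 4 each). Inside the window they leaned to the lower side, since 1221 of 1769 (69.02%) had a log2 ratio below 0, with a median of -0.07, against 56.27% and a median of -0.03 for all 57804 peaks that pass the 4 CPM minimum. In a single model fitted to all 24 libraries (edgeR's quasi-likelihood test, 156745 peaks tested, Benjamini-Hochberg adjusted p under 0.05), 0 of the 1769 sites were called changed with estradiol, beside 0.813% of all tested peaks called higher and 0.0223% called lower. At an unadjusted p under 0.05, 13 sites (0.735%) were lower and none higher by edgeR, against 5.995% of all tested peaks in either direction, and 0 sites passed by DESeq2, against 4.36%. In the same model all 1769 sites were higher in starved than in complete vehicle, beside 9.91% of all tested peaks, with a median fitted log2 fold change of 1.42. For estradiol over complete vehicle 1766 were higher, beside 9.39% of tested peaks. These calls follow from the choice. A fitted estradiol change at 1 site had a median SE of 0.195 on the log2 scale, so the window of 0.25 is not much wider than the error of a single site.

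**Figure D2:**
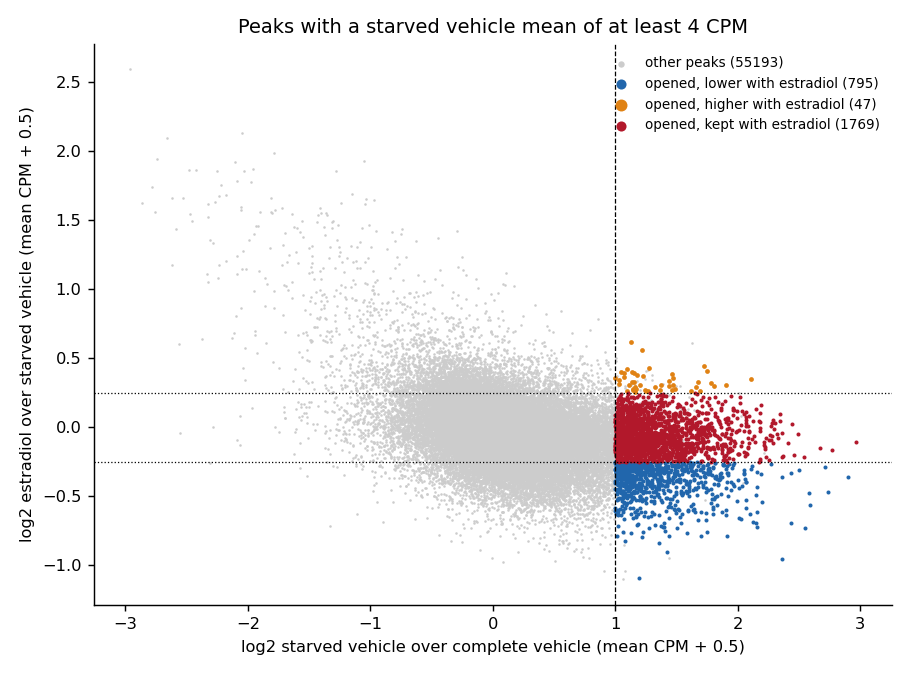
Log2 estradiol over starved vehicle against log2 starved over complete vehicle, from group means plus 0.5 CPM, for the 57804 peaks with a starved vehicle mean of at least 4 CPM. Red points are the 1769 sites kept with estradiol, blue the 795 lower and orange the 47 higher with estradiol, and lines mark the 2-fold ratio and the window of 0.25. The opened peaks form 1 cloud that the window divides.

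Because the same libraries defined the sites, the choice was repeated in 2 replicates and read in the other 2. Chosen in replicates 1 and 2, 2335 peaks were opened and kept with estradiol, 1228 of them also among the 1769. In replicates 3 and 4, which had no part in that choice, 98.4% were still higher in starved than in complete vehicle. By fitted log2 fold change, 49.1% of all tested peaks were higher there, and 49.9% in replicates 1 and 2. Of the 2335 peaks, 53.1% still reached 2-fold in replicates 3 and 4. Their median log2 ratio was 1.04 there, against 1.30 in the replicates that chose them. A model fitted to replicates 3 and 4 alone called 1504 of them (64.4%) higher in starved vehicle (edgeR, adjusted p under 0.05), against 3.9% of all tested peaks, and 0 lower. In the other direction, 1346 peaks chosen in replicates 3 and 4 had a median log2 ratio of 1.17 in replicates 1 and 2, where 98.5% were higher and 1077 (80%) were called higher, against 7.19% of all tested peaks. For these 2335 and 1346 peaks, the higher level in starved vehicle recurred in the libraries that did not choose them, which may be technical replicates. The 2 sets share 1228 and 880 peaks with the 1769 sites. Of all 189403 peaks, 57804 pass the 4 CPM minimum, and the part of level in the shares called was not tested. Replicates 3 and 4 hold both complete vehicle libraries of conflicting label and the shallow starved vehicle replicate 3, with 2422981 counts.

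The division by estradiol held less well. Among the 2335 peaks chosen as kept in replicates 1 and 2, the estradiol over starved vehicle log2 ratio in replicates 3 and 4 had a median of -0.03, and 56.9% lay within the window. Among 1262 opened peaks chosen as lower with estradiol in replicates 1 and 2, with a median of -0.39 there, the median in replicates 3 and 4 was -0.06 and 51.3% lay within the window. The reverse choice gave the same picture, with 70.8% of the kept peaks and 60.4% of the lower peaks inside the window in replicates 1 and 2, at medians of -0.05 and -0.08. Of the 2335 kept peaks, 0 were called higher and 4 lower with estradiol in the held-out replicates. Among all 160761 peaks tested there, 729 were called higher and 26 lower (0.47% in either direction). Of the 1262 lower peaks, 0 were called higher and 1 lower. In the reverse choice 3 of 1346 kept peaks were called higher and 0 lower. The 1966 lower peaks had 0 called higher and 2 lower. Among all 155719 peaks tested in replicates 1 and 2, 907 were called higher and 27 lower (0.6% in either direction). In the replicates that did not choose them, the kept and the lower peaks therefore overlapped over most of their range, and the difference between them was not tested. Replicates 3 and 4 include the shallow starved vehicle replicate 3, and its part in these ratios was not tested.

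**Figure D3:**
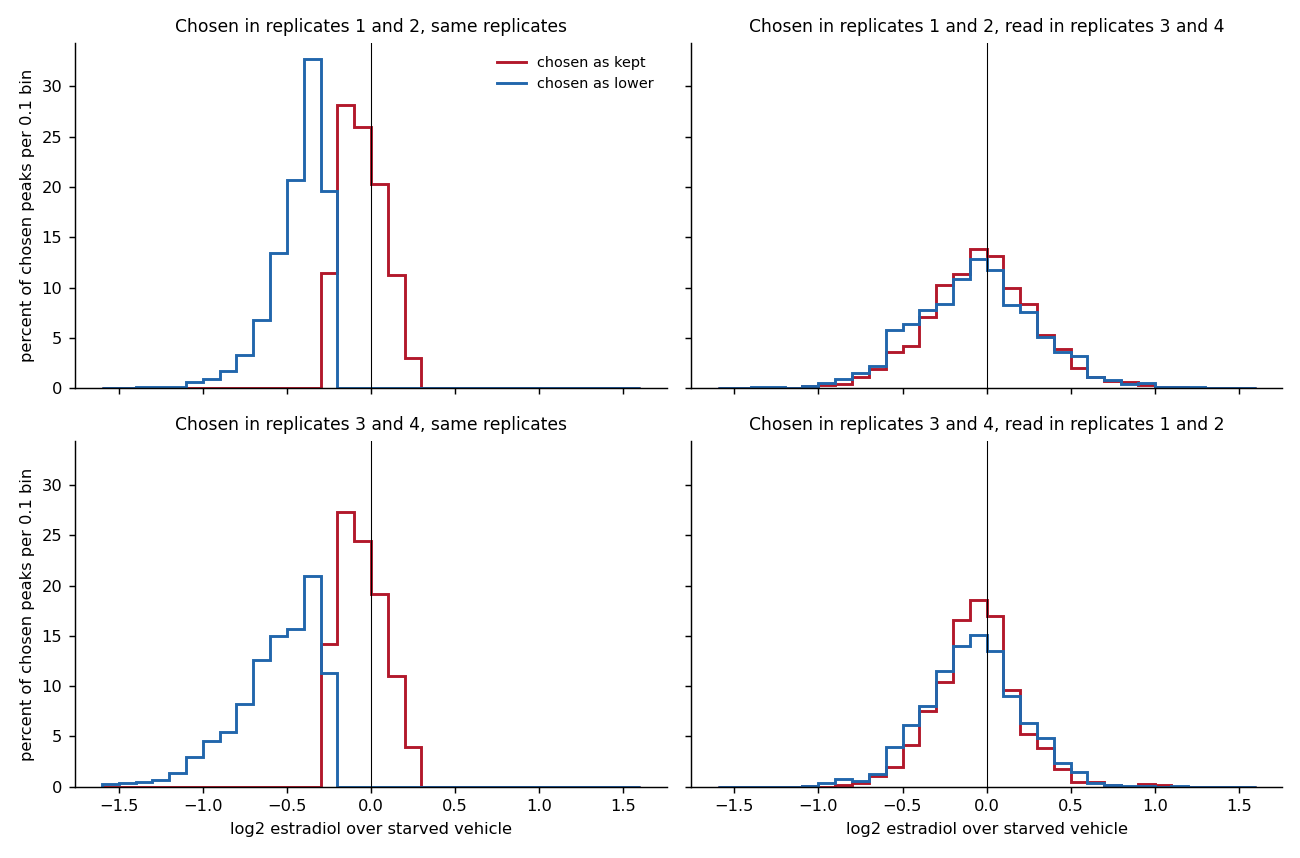
Log2 estradiol over starved vehicle of opened peaks chosen as kept (red) or lower (blue) in 2 replicates, as percent of chosen peaks in bins of 0.1. On the left are the replicates that chose them and on the right the other 2. The distributions stand apart on the left by construction and overlap on the right, where the medians are -0.03 (kept) and -0.06 (lower) in replicates 3 and 4.

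With receptor antagonists in complete medium, the median site stood at 3.287 CPM with fulvestrant, 2.844 CPM with raloxifene and 2.804 CPM with tamoxifen, against 7.637 CPM in starved vehicle and 2.719 CPM in complete vehicle. Both vehicle groups entered the choice, which set them at least 2-fold apart, so the distance of the antagonists from either is a description. At 1476 sites (83.4%), all 11 antagonist libraries other than the shallow fulvestrant replicate 4 lay below all 4 starved vehicle libraries, against 4.29% of all peaks in the series. With the shallow library included there were 1167 such sites, against 3.05% of all peaks. The starved vehicle values in these counts are those that were chosen to be high, and nothing is read from them.

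Against complete vehicle, 0 of 1769 sites were called with fulvestrant (edgeR, adjusted p under 0.05), beside 0% of all tested peaks. The count was also 0 with raloxifene, beside 0.000638% of tested peaks, and 0 with tamoxifen, beside 0%. At an unadjusted p under 0.05, edgeR had 117 sites with fulvestrant (109 higher and 8 lower), 58 with raloxifene and 69 with tamoxifen, and DESeq2 had 105, 59 and 75. By edgeR these were 6.61% of the sites with fulvestrant against 3.96% of all tested peaks, 3.28% with raloxifene against 3.81%, and 3.90% with tamoxifen against 4.13%. By DESeq2 they were 5.94% against 3.08%, 3.34% against 2.31%, and 4.24% against 2.68%, so with raloxifene and tamoxifen the side of the background on which the sites fell differed between the tools. Median log2 fold changes over the sites were 0.14 with fulvestrant, 0.07 with raloxifene and 0.03 with tamoxifen, with median SEs at 1 site of 0.321, 0.299 and 0.31. In replicates 1 and 2 alone the medians were 0.14, 0.11 and 0.08, and in replicates 3 and 4 alone -0.04, -0.02 and -0.04. Replicates 3 and 4 include the shallow fulvestrant library and both vehicle libraries of conflicting label, and without the shallow library the fulvestrant median over all replicates was 0.15. The sites were picked for low complete vehicle values, and that choice cannot be told apart from a small rise over the same vehicle libraries.

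The 3 antagonists can be set against each other without the libraries that chose the sites, since all were given at 100 nM for 1 h. In the 3 pairs, edgeR called 0 of 1769 sites, with 0.000638% of tested peaks called for fulvestrant over raloxifene and 0% for the other pairs. At an unadjusted p under 0.05 there were 71 sites for fulvestrant over raloxifene, 109 for fulvestrant over tamoxifen (95 higher and 14 lower) and 69 for raloxifene over tamoxifen by edgeR, and 74, 106 and 65 by DESeq2. By edgeR these were 4.01% of the sites against 5.16% of all tested peaks for fulvestrant over raloxifene, 6.16% against 5.27% for fulvestrant over tamoxifen, and 3.90% against 3.92% for raloxifene over tamoxifen. By DESeq2 they were 4.18% against 4.48%, 5.99% against 4.58%, and 3.67% against 2.45%. Median log2 fold changes were 0.09, 0.12 and 0.04 in that order of pairs. They were 0.03, 0.08 and 0.05 in replicates 1 and 2 alone and -0.005, -0.02 and -0.002 in replicates 3 and 4 alone, which hold the shallow fulvestrant library. Between the percentiles of 5 and 95, the sites ran from -0.42 to 0.59, from -0.43 to 0.69 and from -0.45 to 0.51.

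The sites with the smallest p-values among the pairs were chosen for their differences and are given as examples. A site 123 kb from CDC42EP3, which encodes an effector of the small GTPase CDC42 (chr2:37795989-37796262), averaged 6.301 ± 1.962 CPM with fulvestrant and 2.459 ± 0.3223 CPM with tamoxifen (SD, n = 4 each). Its log2 fold change was 1.10 with a 95% interval of 0.51 to 1.68 and an edgeR adjusted p of 0.934. The shallow fulvestrant replicate 4 held 9.204 CPM there, and without it the fulvestrant mean was 5.334 ± 0.3936 CPM (SD, n = 3). The log2 fold change over tamoxifen was then 1.09, with an edgeR adjusted p of 0.951. A site 48 kb from the ubiquitin ligase gene HUWE1 (chrX:53483953-53484158) averaged 1.484 ± 0.1735 CPM with raloxifene and 3.215 ± 0.7474 CPM with tamoxifen, a log2 fold change of -1.07 (95% interval -1.66 to -0.48, edgeR adjusted p = 1). A site 2.89 kb from TMSB4X, the gene of an actin-sequestering thymosin (chrX:12980015-12980217), averaged 5.103 ± 4.405 CPM with fulvestrant and 1.279 ± 0.2646 CPM with raloxifene (1.29, interval 0.57 to 2.02, edgeR adjusted p = 0.964). The TMSB4X fulvestrant mean rests on the shallow replicate 4, which held 11.5 CPM, and without it was 2.969 ± 1.337 CPM (SD, n = 3), with a log2 fold change over raloxifene of 1.24 and an edgeR adjusted p of 0.99. No difference between antagonists at these sites passed the threshold, and the intervals leave room for changes of more than 2-fold at 1 site.

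The highest of the sites in starved vehicle lay inside CNTD1, the gene of a cyclin-domain protein of meiotic crossing over (chr17:42804976-42805349). It held 68.33, 66.03, 60.13 and 66.64 CPM with estradiol, 67.92, 72.14, 53.24 and 68.8 CPM in starved vehicle and 32.85, 32.81, 30.41 and 23.32 CPM in complete vehicle. Its antagonist means were 31.64 ± 4.22 CPM with fulvestrant, 31.64 ± 3.096 CPM with raloxifene and 32.74 ± 6.306 CPM with tamoxifen (SD, n = 4 each). All 8 starved libraries lay above all 16 complete-medium libraries, and both the estradiol and the antagonist libraries overlapped their own vehicle.

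A neighbouring pair of high sites lay 318 and 319 kb from B3GAT1, whose enzyme builds the HNK-1 carbohydrate (chr11:134730166-134730393 and chr11:134730720-134731036). The second of them held 51.67, 46.67, 45.14 and 43.84 CPM with estradiol, 50.6, 56.07, 48.7 and 48.07 CPM in starved vehicle and 19.03, 18.79, 15.06 and 14.19 CPM in complete vehicle. The first averaged 38.59 ± 3.994 CPM with estradiol, 43.28 ± 2.756 CPM in starved vehicle and 17.8 ± 4.77 CPM in complete vehicle (SD, n = 4 each). Neighbouring sites like these may be parts of a single open region, so they are not separate replicates of it.

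A site 22.3 kb from AHR, the gene of the aryl hydrocarbon receptor, a ligand-activated transcription factor that senses dioxins and other planar compounds, combined a high level with a steep ratio (chr7:17276204-17276595). It held 54.07, 48.62, 31.63 and 28.22 CPM with estradiol, 52.49, 49.76, 27.65 and 38.11 CPM in starved vehicle and 8.317, 7.335, 7.628 and 4.917 CPM in complete vehicle. The ratio of the vehicle means was 5.63-fold, on means plus 0.5 CPM, and the fitted log2 fold change 2.61 (SE 0.247). Replicates 1 and 2 were higher than replicates 3 and 4 in both starved groups, and within either set the starved libraries were well above complete vehicle. Antagonist means were 8.906 ± 1.502 CPM with fulvestrant, 8.053 ± 1.411 CPM with raloxifene and 5.994 ± 1.388 CPM with tamoxifen (SD, n = 4 each).

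Inside TNKS2, which encodes tankyrase, a poly-ADP-ribosyl transferase that acts in Wnt signalling and at telomeres (chr10:91864108-91864353), the level was 40.04, 46.25, 41.1 and 46.11 CPM with estradiol. It was 40.95, 40.71, 30.13 and 45.25 CPM in starved vehicle and 11.02, 7.077, 10.56 and 10.26 CPM in complete vehicle. The lowest starved library was the shallow replicate 3, still above every complete-medium library. The other high sites lay 397 kb from ETS1, 29.6 kb from BASP1 and inside CLMN, ZDHHC3 and PHF20. Their means were 33.72 to 46.19 CPM with estradiol and 39.22 to 49.27 CPM in starved vehicle, with ratios between 2.012-fold and 2.569-fold.

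The steepest medium ratio belonged to a site inside SYT1, the gene of synaptotagmin 1, the calcium sensor of vesicle release in neurons (chr12:79383014-79383288). It held 9.111, 12.05, 5.189 and 6.424 CPM with estradiol, 9.877, 13.69, 4.127 and 7.762 CPM in starved vehicle and 0.9357, 0.5147, 0.489 and 0.843 CPM in complete vehicle. The fitted log2 fold change between the media was 3.77 (SE 0.358). A second site inside SYT1 (chr12:79300206-79300453) held 16.66, 15.97, 11.12 and 13.23 CPM with estradiol, 15.31, 22.38, 11.14 and 13.41 CPM in starved vehicle and 3.327, 3.86, 3.618 and 4.636 CPM in complete vehicle. With fulvestrant the second site held 5.416, 6.547, 3.487 and 18.41 CPM, where the highest value is the shallow library, in which 1 count is worth 2.301 CPM. Every starved library of both SYT1 sites was above every complete vehicle library.

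A site 49.2 kb from the unnamed gene LOC124903575 (chr15:100829549-100829863) held 11.03, 10.71, 6.837 and 4.031 CPM with estradiol, 9.211, 11.07, 6.603 and 9.967 CPM in starved vehicle and 0.8317, 1.801, 0.489 and 0.562 CPM in complete vehicle. The site on the LOC105376242 promoter printed above (chr9:117466173-117466478), 51.3 kb from ASTN2, the gene of the neuronal membrane protein astrotactin 2, held 15.34, 17, 12.11 and 16.75 CPM with estradiol, 15.09, 20.83, 8.254 and 15.97 CPM in starved vehicle and 1.767, 3.346, 2.054 and 2.248 CPM in complete vehicle. At both sites starved and complete vehicle libraries were far apart, and the estradiol libraries overlapped starved vehicle. The other steep sites, 563 kb from KCNMB2, 21.1 kb from SLC46A2, inside SERGEF, 97.2 kb from PLEKHG7, 5.04 kb from DYRK2 and 735 kb from LOC124901178, had ratios between 5.159-fold and 6.362-fold. Their complete vehicle means were 0.6441 to 3.155 CPM, so these ratios rest on fewer counts than those of the highest sites.

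**Figure D4:**
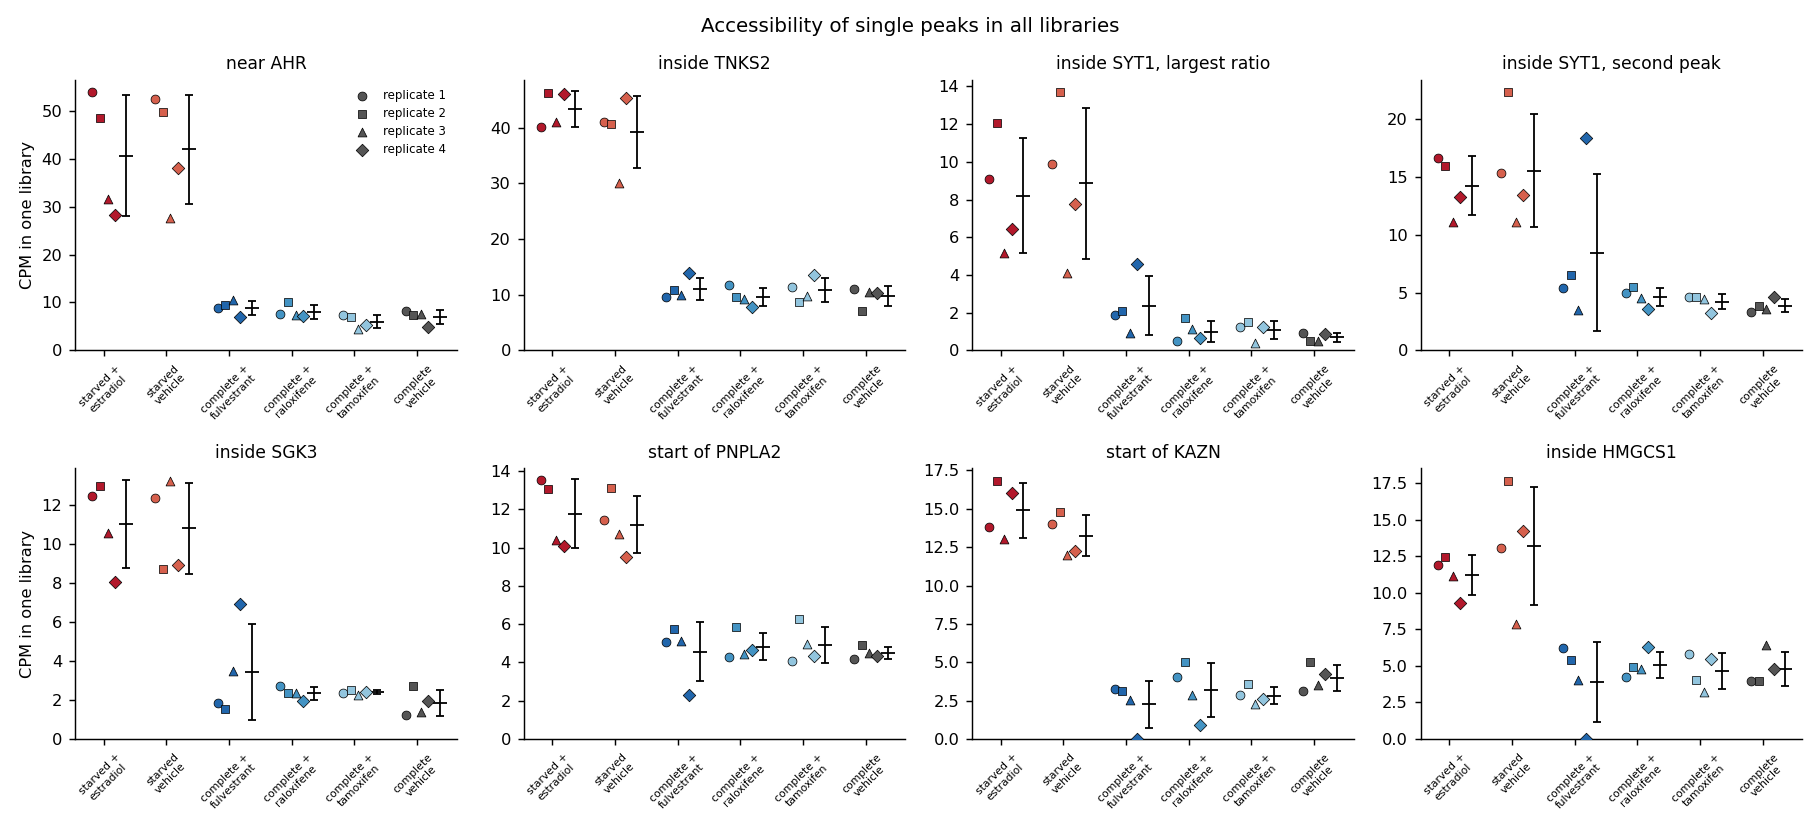
CPM in each of the 24 libraries at 8 of the sites, with the mean and SD of 4 libraries per group. At each site all 8 starved libraries lie above all 4 complete vehicle libraries, as at the site near AHR (27.65 to 54.07 CPM against 4.917 to 8.317 CPM). Fulvestrant replicate 4 is the shallow library, in which 1 count is worth 2.301 CPM.

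Gene starts were rare among the sites. Of the 1661 sites with a measured distance to a gene start (the table of starts used here has none on chromosome 8), 41 (2.47%) lay within 1 kb, against 24.2% of all peaks past the 4 CPM minimum and 10.3% of the whole series. The median distance was 33.9 kb, against 13.84 kb and 26.06 kb. The other sets that follow the medium were also distal, with 2.93% within 1 kb for the opened sites that were lower with estradiol and 4.08% for the complete-medium sites that estradiol did not restore. Beyond 50 kb lay 38.8% of the sites, 43.5% of the lower ones and 34.4% of the complete-medium ones. Inside the interval of a protein-coding gene were 47.7% of the sites, the same share as in the whole series. The sites were 200 to 770 bp wide, with a median of 248 bp against 226 bp in the series. These shares are descriptions, with no test, since the sets differ in level as well as in response.

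**Figure D5:**
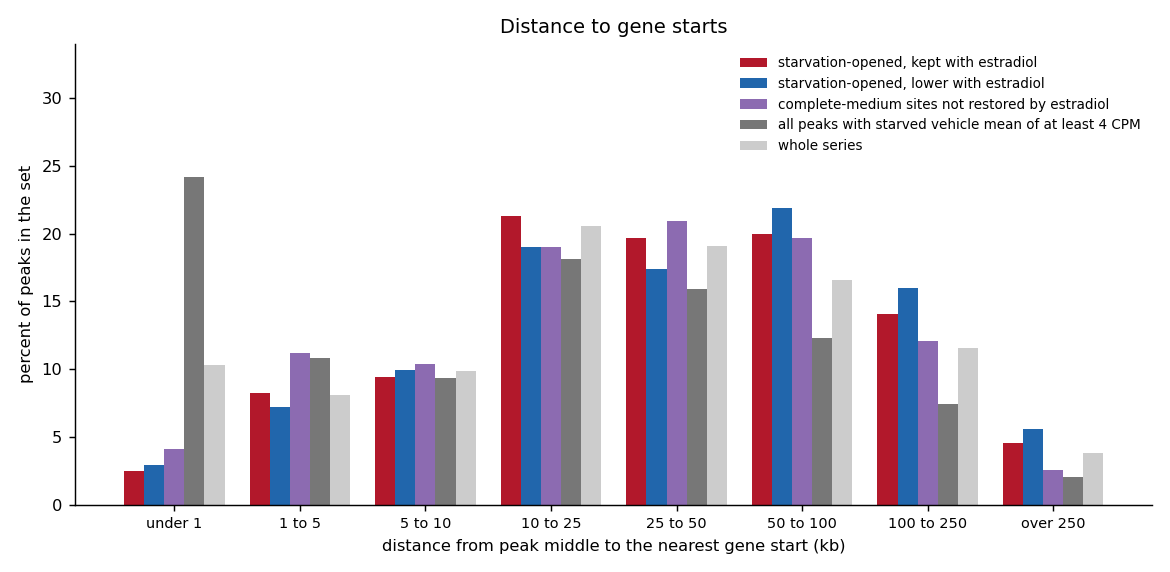
Percent of peaks in each set by distance from the middle of the peak to the nearest RefSeq gene start, in kb. Under 1 kb the kept sites hold 2.47% and all peaks past the 4 CPM minimum 24.2%. From 10 kb outward the kept sites hold a larger share than all peaks past the minimum in every bin.

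The 21 sites over a promoter window (250 bases before to 50 after a start) were 1.26% of the sites, against 19.1% of all peaks past the 4 CPM minimum, and covered 23 windows. At the start of PNPLA2, which encodes the lipase that begins the breakdown of stored triglycerides (chr11:818811-819011), the level was 13.55, 13.08, 10.38 and 10.08 CPM with estradiol, 11.43, 13.09, 10.73 and 9.526 CPM in starved vehicle and 4.159, 4.89, 4.498 and 4.355 CPM in complete vehicle. The KAZN site (chr1:14945574-14946095), whose gene encodes the junction protein kazrin, lies at an annotated start inside the gene interval (13892824 to 15118043), not at its 5′ end. Its level was 13.79, 16.79, 13.01 and 16 CPM with estradiol, 13.98, 14.76, 11.97 and 12.26 CPM in starved vehicle and 3.119, 5.018, 3.52 and 4.215 CPM in complete vehicle. The KAZN level with the antagonists averaged 2.253 ± 1.534 CPM with fulvestrant, 3.207 ± 1.764 CPM with raloxifene and 2.831 ± 0.5472 CPM with tamoxifen, against 3.968 ± 0.8337 CPM in complete vehicle (SD, n = 4 each). The fulvestrant mean includes 0 CPM from the shallow replicate 4, and replicates 1 to 3 held 3.285, 3.157 and 2.57 CPM. At both starts the starved libraries were all above the complete vehicle libraries.

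The site at PLAC1, a gene of the placenta that many tumours express (chrX:134658312-134658579), also lies at an annotated start inside the gene interval (134565838 to 134764322). The level there was 10.91, 11.23, 9.39 and 8.314 CPM with estradiol, 9.877, 12.02, 9.492 and 8.027 CPM in starved vehicle and 3.015, 3.989, 3.912 and 3.372 CPM in complete vehicle. At PAMR1, whose protein carries a peptidase-like domain (chr11:35530293-35530495), it was 13.91, 10.1, 8.814 and 10.96 CPM with estradiol, 10.65, 9.761, 7.016 and 9.262 CPM in starved vehicle and 4.574, 4.632, 2.543 and 4.917 CPM in complete vehicle. The site at KCNJ13, a potassium channel gene that lies within GIGYF2 (chr2:232776443-232776691), held 7.912, 15.14, 10.63 and 9.7 CPM with estradiol, 12.1, 11.31, 9.08 and 14.91 CPM in starved vehicle and 5.198, 4.375, 4.792 and 8.149 CPM in complete vehicle. The KCNJ13 estradiol libraries reached down to 7.912 CPM, within the complete vehicle range, and the other 5 promoters shown kept a gap. Further promoters among the 21 were those of LRRC31, HTR3D, CDH26, CPAMD8, PLEKHG7, LGI1 and MUC19 and of several long noncoding RNAs such as PRICKLE2-AS3 and SCAT8.

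Most promoters under the sites were poor in G and C. Their 23 windows had a median of 44.3% G and C and 2 CpG dinucleotides, against 66.3% and 27 in the 13573 windows under peaks past the 4 CPM minimum and 58.7% and 14 in all 34961 windows. CPAMD8, with 78.7% and 39, and PNPLA2, with 59.3% and 5, were the only 2 of the 23 above the median G and C share of all windows. Each motif was searched by its letters on both strands of the 300 bases, and letters of different motifs may overlap. The forkhead letters TNTTTAC stood in 8 of the 23 windows (34.8%), against 6.5% of the windows under peaks past the minimum and 10.8% of all windows. AP-1 letters TGANTCA stood in 5 (21.7%, against 4.38% and 7.68%), GATA letters AGATAA in 5 (21.7%, against 4.04% and 10.3%) and TEAD letters GGAATG in 6 (26.1%, against 10.3% and 14%). The estrogen receptor letters AGGTCA, a single arm of its palindrome, stood in 3 windows (13%, against 8.97% and 13.8%).

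Letters rich in G and C ran the other way under the sites. SP and KLF letters CCGCCC stood in 4 windows (17.4%, against 72.9% under peaks past the minimum and 45% of all), ETS letters CCGGAA in 2 (8.7%, against 30.6% and 17.3%), AP-2 letters GCCNNNGGC in 1 (4.35%, against 33.7% and 23.2%) and E-box letters CACGTG in 0 (against 9.9% and 7.27%). RUNX letters TGTGGT stood in 4 windows (17.4%, against 9.1% and 13.1%), STAT letters TTCNNNGAA in 3 (13%, against 5.89% and 7.66%), grainyhead letters AACNGGTT in 2 (8.7%, against 1.51% and 1.73%) and the steroid receptor palindrome in 1 (4.35%, against 0.177% and 0.392%). Base composition moves with these shares, as the G and C values show, and its part was not tested. The windows are few, and a letter match describes the sequence, not binding.

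Around genes of the estrogen response the sites were scarce, as they were around housekeeping genes (0 of 109 peaks past the 4 CPM minimum). Most of the other gene lists below also stood under the overall share. Within 50 kb of 30 estrogen-induced genes, 1 of 268 peaks past the 4 CPM minimum was among the sites (0.373%, against 3.06% for all such peaks). In the medium comparison, 30 of the 651 tested peaks near these genes were called higher in starved vehicle and 203 lower (edgeR, adjusted p under 0.05, against 9.91% and 7.93% of all tested peaks). The single site lay inside SGK3, which encodes a serum- and glucocorticoid-regulated kinase (chr8:66747988-66748197). It held 12.47, 12.98, 10.54 and 8.062 CPM with estradiol, 12.32, 8.69, 13.21 and 8.909 CPM in starved vehicle and 1.248, 2.702, 1.369 and 1.967 CPM in complete vehicle. Near 16 estrogen-repressed genes, 0 of 204 peaks were among the sites, with 30 higher and 32 lower in starved vehicle of 357 tested.

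Genes of growth arrest and FOXO targets, which respond to loss of growth factors, had 0 of 140 peaks among the sites (23 higher and 27 lower of 274 tested). Sterol and fatty acid synthesis genes had 2 of 104 (1.92%, 12 higher and 25 lower of 231), near HMGCS1 and near SQLE, which encode enzymes of cholesterol synthesis. The HMGCS1 site (chr5:43309785-43310043) held 11.87, 12.46, 11.12 and 9.322 CPM with estradiol, 13.09, 17.62, 7.842 and 14.2 CPM in starved vehicle and 3.951, 3.989, 6.454 and 4.777 CPM in complete vehicle. The lowest starved value there, 7.842 CPM, came from the shallow replicate 3 and was above the highest complete vehicle value. Receptor tyrosine kinase genes had 2 of 155 (1.29%, 33 higher and 47 lower of 380), both inside IGF1R, the receptor of insulin-like growth factor, with means of 9.189 and 7.393 CPM with estradiol, 8.959 and 6.65 CPM in starved vehicle and 2.833 and 2.767 CPM in complete vehicle.

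Luminal identity genes had 4 of 193 (2.07%, 16 higher and 82 lower of 416), near the AP-2 factor genes TFAP2A and TFAP2C, the epithelial factor gene GRHL2 and the secreted protein gene AGR2. Basal and mesenchymal genes had 2 of 69 (2.9%, 20 higher and 18 lower of 180), near the filament gene VIM and inside TP63, the gene of the basal factor p63. The TP63 site (chr3:189722174-189722445) held 14.15, 13.6, 7.414 and 7.558 CPM with estradiol, 12.76, 11.55, 9.08 and 8.909 CPM in starved vehicle and 4.678, 5.79, 2.64 and 3.793 CPM in complete vehicle. Starved and complete vehicle libraries did not overlap at TP63, and replicates 1 and 2 with estradiol were above replicates 3 and 4. Blood genes had 1 of 42 (2.38%, 12 higher and 3 lower of 105), near CD79A, and housekeeping genes 0 of 109 (10 higher and 17 lower of 235).

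AP-1 and immediate early genes had 3 of 162 (1.85%, 17 higher and 28 lower of 278), near FOS, JUN and NR4A1. FOS and JUN encode subunits of the AP-1 factor, and NR4A1 an orphan nuclear receptor. The FOS site, 9.42 kb away (chr14:75269269-75269547), held 16.66, 18.85, 20.84 and 19.15 CPM with estradiol, 19.31, 20.36, 19.81 and 18.96 CPM in starved vehicle and 12.27, 7.592, 7.432 and 9.413 CPM in complete vehicle. Interferon-stimulated genes had 0 of 88 (15 higher and 11 lower of 171), and glucocorticoid and progestin responsive genes 1 of 122 (0.82%, 10 higher and 39 lower of 252), near the zinc finger factor gene KLF15.

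The genes of cell adhesion and the synapse stood above the overall share of 3.06%. The TGF-beta pathway genes were close to it on so few sites, 2 of them at 1 gene, and neither list was tested. TGF-beta pathway genes had 5 of 109 (4.59%, 31 higher and 18 lower of 266). They lay near TGFB2, a ligand, with 2 sites, LTBP1, which holds the latent ligand in the matrix, BAMBI, a decoy receptor, and SMAD2, the signal transducer. The higher TGFB2 site, 35.7 kb away (chr1:218480194-218480394), held 14.03, 15.56, 10.63 and 9.448 CPM with estradiol, 17.53, 13.45, 10.32 and 11.29 CPM in starved vehicle and 4.886, 6.048, 3.423 and 4.636 CPM in complete vehicle. Its starved libraries all lay above complete vehicle, and the estradiol libraries, between 9.448 and 15.56 CPM, overlapped the starved vehicle range.

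Cell adhesion and synapse genes had 11 of 147 (7.48%, 63 higher and 29 lower of 519). They were spread over 6 of the 16 genes, with 4 sites at DLG2, a scaffold of the postsynaptic density, 3 at SYT1 and 1 each at the adhesion genes CADM1, NCAM2, PCDH7 and CDH12. Starved over complete vehicle log2 ratios at these 11 sites had a median of 1.25, close to the 1.26 of all sites. Sites at the same gene share a neighbourhood, and these genes are long, so the counts are not independent. The genes with the most sites in or within 10 kb of them were likewise long, with 5 sites each at DNM3, a dynamin gene of 577 kb, and NLGN1, a synaptic adhesion gene of 898.4 kb. DNM3 has 45 peaks in all and NLGN1 89, and their sites had log2 starved over complete vehicle ratios of 1.075 to 1.531 and of 1.004 to 1.627. Another 4 sites each lay at HPSE2, KCNMA1, MECOM, NSMCE2 and the overlapping genes IQCJ-SCHIP1 and SCHIP1.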

How the data were processed

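The deposited values are whole-number counts per peak in 1 peak set for 24 libraries, with no normalization. Reads had been trimmed by cutadapt 1.8.1, aligned to hg38 by Bowtie2 2.4.4 and processed by SAMtools 1.9, per the submitters' processing notes. No source used here gives the peak caller, counting, duplicate handling or Tn5 shift, and the table does not say whether starts count from 0 or 1. Undisclosed duplicate handling or fragment counting would scale the depth behind each count.

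The members, gene lists, motifs and rules were chosen with earlier results of these data known. CPM were computed from column totals with a pseudocount of 0.5 on ratios. All libraries entered 1 edgeR 4.0.16 model in R 4.3.3 (6 group means, TMM, filterByExpr with a minimum count of 10 and total of 15, quasi-likelihood with robust=TRUE and legacy=FALSE), tested two-sided and adjusted by Benjamini-Hochberg over 156745 peaks, which include all 1769 sites. DESeq2 1.42.0 was an alternative. Other alternatives were RLE factors, no count filter, the replicate number as a block, replicates 1 and 2 against 3 and 4 as a term or alone, leaving out libraries, and other limits of the choice. The fitting code was also run on simulated counts with a constant spread and no shift between replicates, and no result here rests on that run. The split of opened peaks by estradiol in held-out replicates was added after seeing the data.

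Replicates of a group differed beyond counting noise in all 36 pairs, with chi-square statistics of 1.73 to 3.33 for each degree of freedom. Same-numbered estradiol and starved vehicle libraries deviated together (correlations 0.248, 0.261, 0.126 and 0.129 for replicates 1 to 4). Replicates 1 and 2 correlated best with their own number and replicates 3 and 4 did not, so pairing by number is not settled. With the replicate block 0 of the 1769 sites were called with estradiol, against 1643 of all 156745 tested peaks. Intervals are 95%. Named peaks are the 10 highest in starved vehicle, the 10 steepest between media, the 5 smallest p-values in antagonist pairs, the highest site within 50 kb of each list's genes and up to 10 over promoters. Other sites near list genes and promoters were named after their values were seen. Genes come from 19970 protein-coding RefSeq intervals on GRCh38.p14 (all 220 list genes matched) and starts from 34961 promoter windows.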

Additional observations from a re-analysis of the deposited data

Results flagged for a closer look

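The mean over all sites and the values at 18 single sites were examined for libraries that stand apart within their group of 4, by Dixon's ratio at its 95% critical value. Of 114 groups, 3 (2.63%) were past it, and chance flags about 1 in 20. In the second SYT1 site (chr12:79300206-79300453), 1 tamoxifen library was low at 3.242 CPM, while the others held 4.587, 4.61 and 4.406 CPM. At the PAMR1 start (chr11:35530293-35530495), 1 complete vehicle library was low at 2.543 CPM, and the others held 4.574, 4.632 and 4.917 CPM. Inside TP63 (chr3:189722174-189722445), 1 fulvestrant library was at 0 CPM, and the others held 6.748, 6.664 and 6.24 CPM. The library at 0 is the shallow fulvestrant replicate 4, in which 1 count is worth 2.301 CPM, so that a count of 0 allows up to 6.903 CPM (3 counts). The low PAMR1 library is replicate 3, with the conflicting treatment label.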

How the results depend on the processing

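The number of sites depended on the limits of the choice, with 2671 at a starved minimum of 2 CPM and 838 at a minimum of 8 CPM, both outside 1.5 times the 1769. Leaving out 1 library in turn gave 1503 to 2064 sites (1503 without estradiol replicate 2, 2064 without starved vehicle replicate 3, the shallow one, 1361 of them shared). Within 1.5 times were 1742 with TMM (1672 shared), 1971 and 1447 at pseudocounts of 0.1 and 1, 1242 and 2157 at estradiol windows of 0.15 and 0.35, and 1750 without the conflicting-label vehicle libraries (1440 shared). Of the 1769, edgeR called 1769 higher in starved vehicle with the replicate block, 1755 to 1766 without 1 library, 1712 in replicates 1 and 2 and 1509 in replicates 3 and 4. These counts follow from the choice. Of all tested peaks, 7.19% were called higher in replicates 1 and 2 and 3.9% in replicates 3 and 4. In either direction the block called 30938 of 156745 tested peaks, and the runs without 1 library called 21377 to 28163. Between the media the numbers likewise did not pair all libraries (correlations 0.024 to 0.191). Among the 1769 sites the block gave 0 calls with estradiol, any antagonist or any antagonist pair, as did every other alternative run. Over all tested peaks the block called 1643 with estradiol and 0 to 6 in each antagonist comparison. Replicates 3 and 4 alone called 88 peaks for fulvestrant over vehicle, 132 for fulvestrant over raloxifene and 281 for fulvestrant over tamoxifen. Of 688 recomputed values at named peaks 684 kept their side of the threshold, 4 lost it and 0 reversed. Antagonist changes at single sites had median SEs near 0.3 on the log2 scale, and the parts of depth and of other spread between replicates in them were not tested.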

Other observations

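Peaks beside the sites also opened with starvation in part. Of the 1769 sites, 1454 had another peak within 10 kb, and for 107 the nearest was itself among the sites. The nearest peaks that were not comprised 1340 distinct ones, of which 1193 were tested. Of these, 324 (27.2%) were called higher in starved than in complete vehicle and 34 lower (edgeR, adjusted p under 0.05), against 9.91% and 7.93% of all tested peaks, and their median log2 fold change was 0.31. With estradiol 5 of the 1193 were called higher and 1 lower, against 0.813% and 0.0223% of all tested peaks.

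The share of peaks past the 4 CPM minimum that belonged to the sites differed between chromosomes. It was 0.497% on chromosome 19 (12 of 2416), 1.14% on chromosome 22 and 1.53% on chromosome 17. It reached 4.91% on chromosome 18 (39 of 795), 4.49% on chromosome 10 and 4.36% on chromosome 3, which held the most sites (180 of 4131). Chromosome 18 is poor in genes and chromosome 19 is rich in them, and no test was made.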
